A study of Mus musculus with 8 samples.

Results

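Sntg1 and Nkain3 fibroblasts are nuclei of the mouse heart that hold fibroblast transcripts together with RNA of 6 genes that other cardiac fibroblasts hold at low levels: Sntg1, Nkain3, Thsd7b, Aox3, Gria4 and Gpr39. A barcode was counted as a fibroblast barcode when it had at least 800 unique molecular identifiers (UMIs, counted RNA molecules) outside the mitochondrial genome, when Gpc6, Bicc1 and Pdgfra together took at least 1.2 times their share of the whole library, and when the cardiomyocyte genes Ryr2 and Ttn took no more than 1 time theirs. It was a member when the 6 genes took at least 5 times their share of the library with at least 4 UMIs, and when that enrichment was more than 2 times that of Gfpt2, Adgrd1, Has2 and C7 and that of Kcnip1, Bmper, Rgs17 and Tll2, the genes of 2 other fibroblast sets. The rule kept 3117 nuclei, which are 5.70% of the 54653 fibroblast barcodes and 1.84% of the 169193 barcodes in all. The matrices hold more barcodes than the study kept after its own filters, so the barcodes called nuclei here are not all nuclei that it kept, and the shares are shares of barcodes. Since these UMIs chose the nuclei, the levels of the 6 genes are given as a description.

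Fibroblasts build and turn over the collagen matrix of the heart and differ by niche, for instance around vessels, in the valves and beneath the epicardium. The 6 genes are not a known pathway. Sntg1 encodes gamma-1-syntrophin, a scaffold of the dystrophin complex. Nkain3 encodes a membrane protein that interacts with the Na,K-ATPase, Thsd7b a protein with thrombospondin type 1 repeats, Aox3 an aldehyde oxidase, Gria4 a subunit of AMPA-type glutamate receptors, and Gpr39 a receptor that responds to zinc. Positions here are from GENCODE vM21 (build GRCm38), and the gene models used for counting may differ from these. Sntg1 lies at chr1:8361475-9299878 on the minus strand, Thsd7b at chr1:129273302-130219278 on the plus strand and Nkain3 at chr4:20118874-20778866 on the minus strand. Aox3 is at chr1:58113130-58200698 (plus), Gria4 at chr9:4417896-4796234 (minus) and Gpr39 at chr1:125676995-125873862 (plus), where its end overlaps Lypd1 on the opposite strand. Most reads of such long genes in nuclei can come from introns, which the counting included.

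Nuclear RNA was sequenced from the hearts of 8 male mice aged 9 weeks, 4 wild type (WT) and 4 with a knockout of Tafazzin (Taz-KO), a model of Barth syndrome. Tafazzin remodels cardiolipin, the characteristic phospholipid of the inner mitochondrial membrane. The knockout allele is only named in the sources used here, and each library is 1 mouse. WT mice 4686, 4909, 5355 and 5356 gave 466, 655, 437 and 377 members, and Taz-KO mice 4685, 4910, 5300 and 5301 gave 27, 683, 406 and 66. The members' summed UMIs ran from 288670 in Taz-KO 5301 to 5941590 in WT 4909, and both small Taz-KO libraries gave fewer counts than every other mouse. Between 3374 and 11531 UMIs stood behind the median member of a mouse, against 2336 to 6820 behind the median of the other 41429 fibroblast barcodes, which lie outside the 3 named sets. Only 2 of 3115 distinct member barcodes occurred in more than 1 library. The rule's limits cut through a continuum: 235 members had an enrichment of 5 to 6.25, 131 barcodes that met every other criterion had 4 to 5, 354 members had exactly 4 UMIs of the 6 genes, and 320 such barcodes had 3. At the fibroblast limit, 1066 barcodes that met every other criterion lay anywhere below an enrichment of 1.2, and 380 members lay between 1.2 and 1.5.

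The label held in part. The summed level of 16 fibroblast markers in members was 12082 to 16654 CPM (UMIs of a gene per 1000000 UMIs) in WT mice and 7801 to 15062 in Taz-KO mice, 0.637 to 1.07 times that of the other fibroblast barcodes of the same mouse. Against the whole library the sum was 0.670 to 2.50 times as high, and it was below the library in Taz-KO 4685 alone. Markers of the mesothelium, the epithelial sheet that covers the heart, were also present. The 8 mesothelial markers (Wt1, Muc16, Upk1b, Upk3b, Msln, Lrrn4, Bnc1 and Krt19) summed to 273 to 688 CPM in members of WT mice and 704 to 1663 CPM in members of Taz-KO mice, 2.40 to 6.41 times the whole library, with UMIs of all 8 genes in every mouse. The 6 endocardial markers (Npr3, Cgnl1, Plvap, Hapln1, Cdh11 and Nrg1) summed to 397 to 738 CPM in members of WT mice and 687 to 1550 CPM in those of Taz-KO mice. These sums were 1.19 to 2.45 times the library and 1.02 to 1.40 times the other fibroblast barcodes. Gene by gene the median log2 ratio of the 6 to the other fibroblast barcodes was -0.15. Only 1 of them was higher and 1 lower in all 8 mice. The 10 Schwann and glial markers summed to 596 to 782 CPM in WT and 308 to 652 CPM in Taz-KO members, a median of 1.92 and at most 2.47 times the library but 0.561 to 1.04 times the other fibroblast barcodes, with UMIs of 4 to 10 of the genes. The part of endocardial and glial RNA in the results was not tested. Counting a member as mesothelial-marker positive when the list reached an enrichment of 5 with 4 UMIs, 391 of the 3117 members were positive. This limit was set after the members' values had been seen.

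These 391 nuclei differed from the other members in the genes that brought them into the set. Sntg1 stood at 487 to 2041 CPM in them and at 681 to 1659 CPM in the remaining members, and Gpr39 was higher in them in 7 of the 8 mice. Nkain3 was at 48.3 to 216 CPM against 184 to 443 CPM and Thsd7b at 16.8 to 178 CPM against 153 to 343 CPM, both lower in them in every mouse. Gria4 was at 0.00 to 127.9 CPM in them against 128 to 304 CPM in the remaining members. Aox3 was at 0.00 to 63.4 CPM against 67.9 to 159.7 CPM. The fibroblast gene Pdgfra, the receptor of platelet-derived growth factor A, was at 35.6 to 204 CPM against 325 to 554 CPM. Muc16, a mucin of mesothelial surfaces, was at 1277 to 2279 CPM against 9.31 to 68.1 CPM. The mesothelial-marker nuclei thus held Sntg1 and Gpr39 but less of the other 4 genes of the rule and of Pdgfra, and the results below are for all members, some of them also given without these nuclei.

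The positive nuclei were a larger share of the members in Taz-KO mice. They made up 5.79%, 6.11%, 11.9% and 12.2% of members in WT mice 4686, 4909, 5355 and 5356. In Taz-KO mice 4685, 4910, 5300 and 5301 they made up 25.9%, 18.7%, 18.5% and 24.2%. The genotypes did not overlap. The means were 9.0 ± 3.5% (SD, n = 4) and 21.8 ± 3.80% (SD, n = 4), a difference of 12.8 percentage points, with p = 0.0286 in the exact two-sided permutation test, the smallest that 4 against 4 mice can give. In the Taz-KO mice these were 7, 128, 75 and 16 nuclei. Among the other fibroblast barcodes the share was 0.626 to 1.42% in WT and 1.94 to 3.56% in Taz-KO mice. In the Gfpt2 and C7 set it was 0.152 to 1.23% in WT and 2.94 to 5.71% in Taz-KO mice. In the Kcnip1 and Bmper set it was 0 to 0.380% and 0 to 1.10%.

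**Figure D1:**
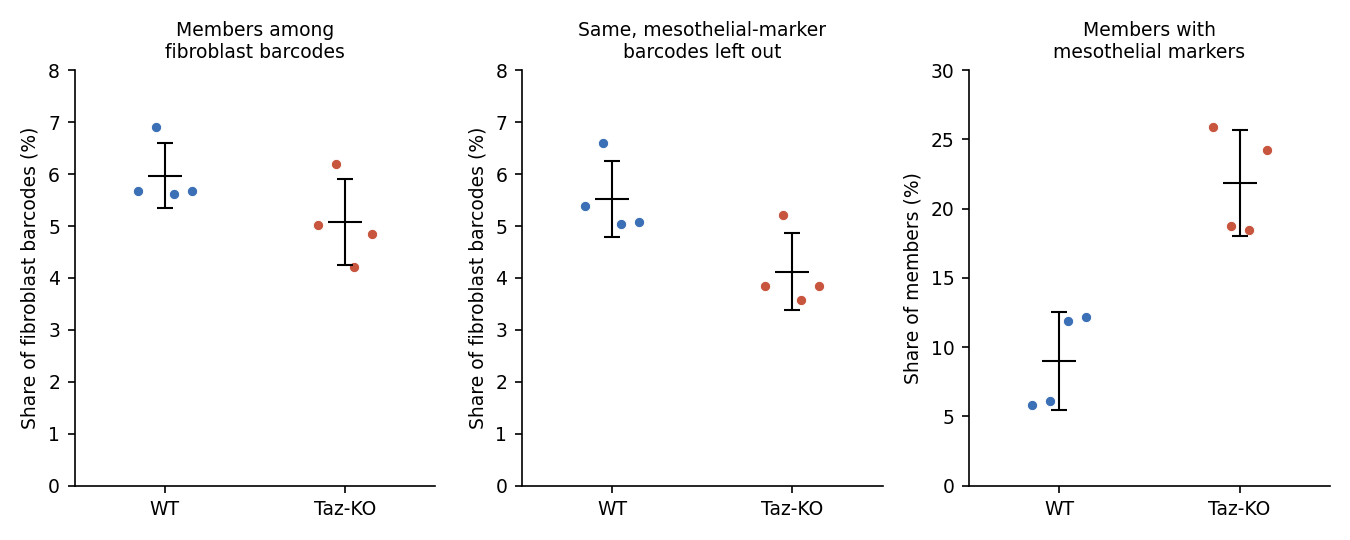
Share of Sntg1 and Nkain3 fibroblasts among fibroblast barcodes in percent (left), the same after leaving out barcodes with mesothelial markers (middle), and share of members with mesothelial markers in percent (right), for 4 WT and 4 Taz-KO mice. Points are mice, the bar with whiskers is the mean with its SD. The genotypes overlap in the left plot, while the Taz-KO mice at 18.5% to 25.9% lie above all WT mice on the right.

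Members were a slightly smaller share of the fibroblast barcodes in Taz-KO mice, within the spread of the mice. The shares were 5.68%, 6.91%, 5.62% and 5.68% in WT mice 4686, 4909, 5355 and 5356. They were 5.03%, 6.20%, 4.21% and 4.85% in Taz-KO mice 4685, 4910, 5300 and 5301. The means were 5.97 ± 0.626% and 5.07 ± 0.832% (SD, n = 4 each), and the exact two-sided permutation test gave p = 0.114. Without barcodes with mesothelial markers the means were 5.52 ± 0.731% and 4.12 ± 0.744%, with p = 0.0857 in the same exact test. The direction turned when each nucleus was thinned to 800 UMIs, with 2.64% in WT and 2.76% in Taz-KO mice, and when 1 set of library shares served all mice, with 5.28% and 6.16%. Without Taz-KO 4910 the difference was -1.28 percentage points, with an exact permutation p of 0.0286, the smallest that 4 against 3 mice can give. That mouse had the highest share of its genotype, and this difference was the largest of those from leaving out 1 mouse.

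Nuclei chosen by the 6 genes held them at high levels also in UMIs that the choice had not used. When the UMIs of each barcode were split at random into 2 equal parts, with members chosen on the first and measured in the other, Sntg1 stood at 600 to 1484 CPM in members and at 28.4 to 53.2 CPM in other fibroblast barcodes, a ratio of 16.3 to 47.2. The median ratio over the 8 mice was 9.61 for Nkain3, 8.69 for Thsd7b, 10.1 for Aox3, 8.84 for Gria4 and 8.38 for Gpr39, and it was above 1 in every mouse for all 6 genes. The same 6 genes chose these nuclei, so these ratios cannot show that the genes share nuclei. The level of each gene was also higher in every mouse when members were chosen with the 5 other genes alone. In that case the median ratio was 8.31 for Sntg1 and between 3.80 (Gria4) and 6.40 (Aox3) for the rest. By this second choice each gene occurred together with the others more than among fibroblasts at large, although few nuclei showed all of them. Mesothelial-marker nuclei were included. Between 15.7% and 26.8% of a mouse's members had UMIs of only 1 of the 6 genes. Between 29.6% and 45.1% had UMIs of exactly 2, and 0 to 3.70% had all 6. Sntg1 was detected in 48.1% to 69% of members and in 4.96 to 13.5% of other fibroblast barcodes. Gria4 was detected in 12.1 to 35.7% of members against 1.65 to 9.51%.

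**Figure D2:**
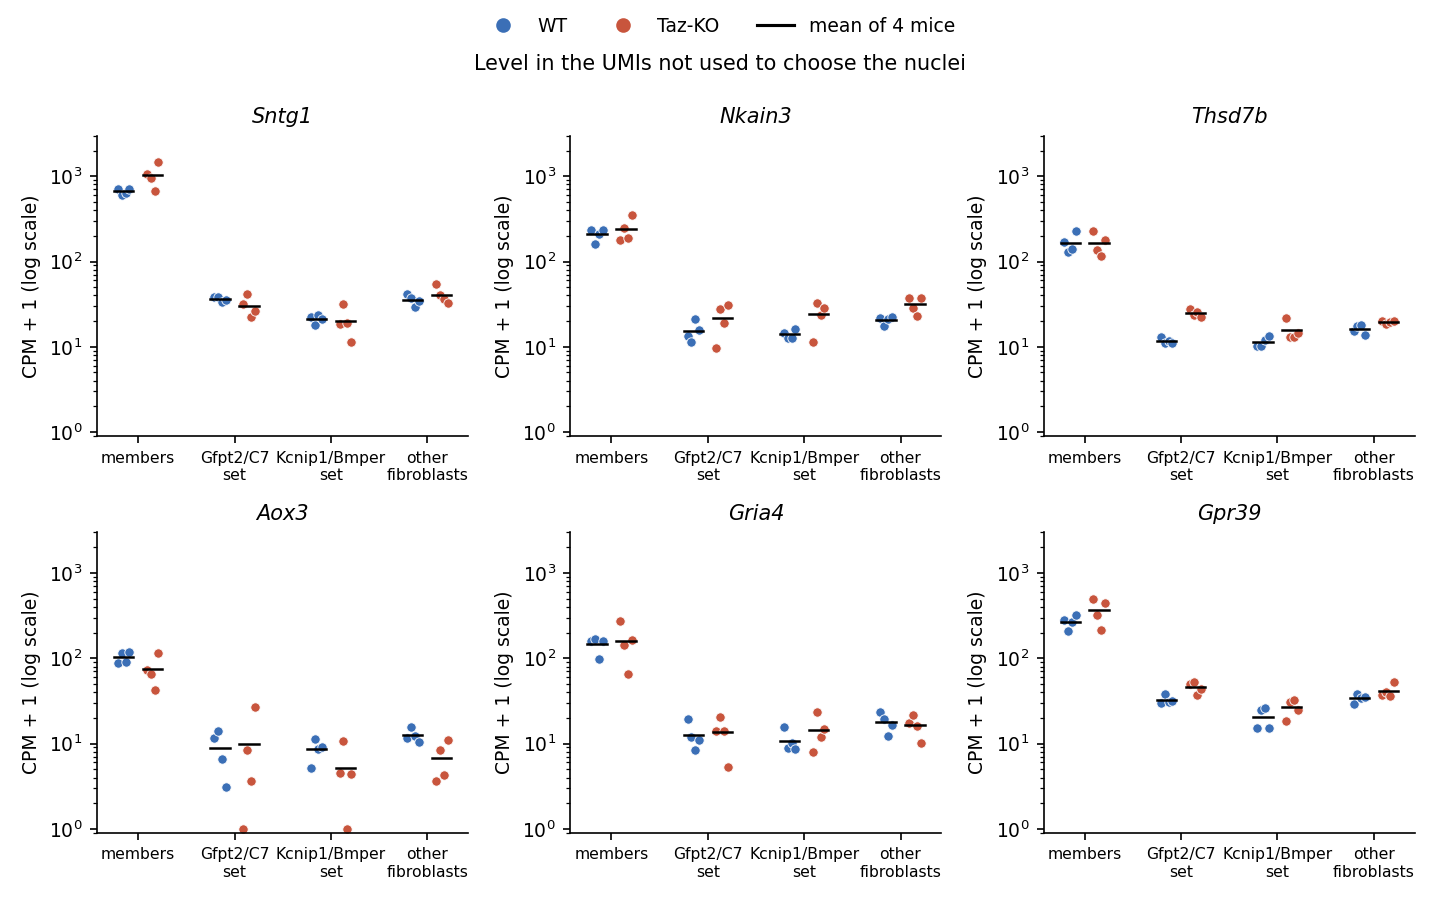
Level of the 6 genes (CPM + 1, log axis) in members, in the Gfpt2 and C7 set, in the Kcnip1 and Bmper set and in other fibroblast barcodes, each chosen on a random part of the UMIs and measured in the other part. Points are mice, blue for WT and red for Taz-KO, and lines are means of 4 mice. Each gene is highest in members, with a lowest member value of 41.5 CPM (Aox3) and a highest of 1484 CPM (Sntg1). The same 6 genes chose the members.

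The members lay near each other also in genes that the rule did not use, as did both other fibroblast sets. In a space of 15 components built without the rule's 19 genes, 21.1% to 28.9% of the 20 nearest fibroblast barcodes of a member were members, against 2.48% to 4.72% around other fibroblast barcodes of the same mouse and a base share of 4.21% to 6.91%. For the Gfpt2 and C7 set the same share was 19.4% to 42.8% (base 6.33% to 9.74%), and for the Kcnip1 and Bmper set 14.5% to 37.6% (base 5.64% to 13.1%). The shares were taken over all members, mesothelial-marker nuclei included. In every mouse the median member also held more UMIs than the median other fibroblast barcode. The part of either in these shares was not tested. Of 8225 genes at 20 CPM or more in either population, 803 were higher in members than in other fibroblast barcodes in all 8 mice and 1017 lower. Among the 153 of these higher genes with a median log2 ratio above 1 (of CPM + 1), 58 kept a ratio above 1 and 25 fell below 0 once barcodes with mesothelial markers were left out of both populations. These ratios have no test, because the nuclei were cut from the same counts.

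The gene next to the 6 in size was Shisa9, which encodes an auxiliary subunit of AMPA receptors, at 38.5 CPM on average in members and 3.85 CPM in other fibroblast barcodes. Its median log2 ratio was 3.01 with and 3.26 without mesothelial-marker nuclei. Il1rapl1, a synaptic organizer of the interleukin-1 receptor family, had a ratio of 2.86 and stood at 715 CPM in members against 99.3 CPM. Nkain2, a relative of Nkain3, had a ratio of 2.59 and was among the most abundant, at 837 CPM against 137 CPM. Pex5l, which encodes a regulator of pacemaker (HCN) channels, had a ratio of 2.48, L3mbtl4, a chromatin reader of the MBT family, 2.38, and the noncoding gene Gm12022 2.70. The secreted proteins Ism1 (isthmin 1) and Vwc2 (an antagonist of bone morphogenetic proteins) had ratios of 2.25 and 2.20. Without mesothelial-marker nuclei these 8 genes kept median ratios of 2.43 to 3.26.

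Il1rapl1 was highest in the mesothelial-marker nuclei, at 1504 CPM. Of the 20 genes with the largest ratios, 6 had ratios lower by more than 1 without the mesothelial-marker nuclei. Muc16 went from a median log2 ratio of 2.33 to 0.16, Upk1b, a uroplakin of epithelial membranes, from 2.19 to -0.03, Gm29266 from 2.35 to 0.06 and Pcnx2 from 2.33 to -0.03. Rspo1, a secreted amplifier of Wnt signals, went from 2.32 to 1.31, and Wt1os, antisense to the mesothelial factor Wt1, from 2.33 to 1.29. Rspo1 without these nuclei was higher in members in 7 of 8 mice only.

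**Figure D3:**
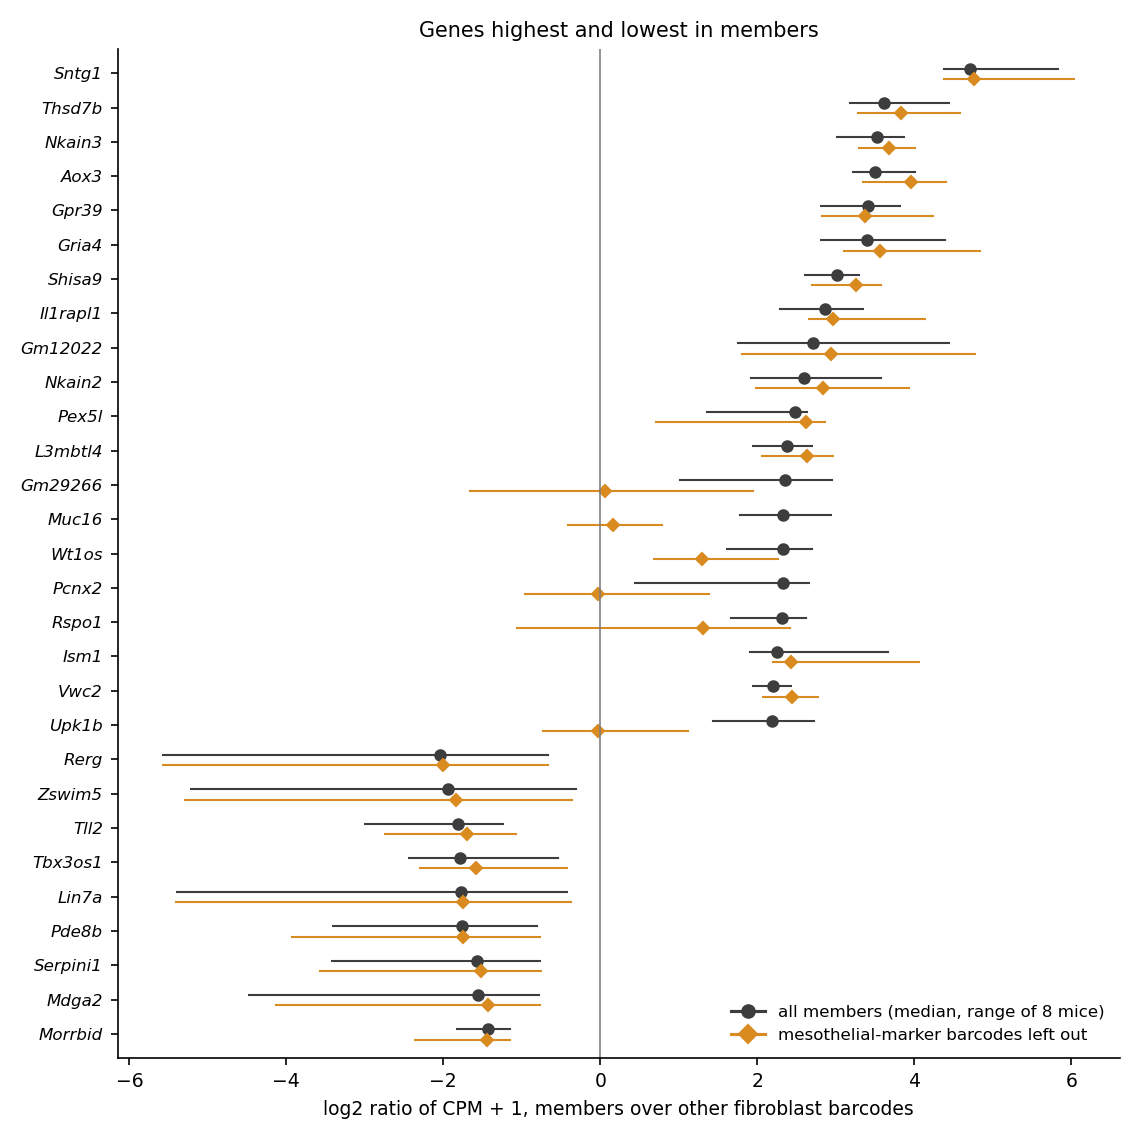
The 20 genes with the largest and 9 of the 10 with the smallest median log2 ratio of CPM + 1 between members and other fibroblast barcodes, for all members (dark circles) and after leaving out barcodes with mesothelial markers (orange diamonds). Symbols are medians and lines the range over 8 mice. Sntg1 leads at 4.70, and Muc16, Upk1b, Gm29266 and Pcnx2 move to near 0 in the orange series.

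Relatives of the 6 genes were mixed in direction over the lists, and the first 4 lists here include the gene of the rule. Of all 12802 genes at 5 CPM or more, 987 were higher and 1271 lower in members in all 8 mice. Of 12 AMPA and kainate receptor genes at 5 CPM or more, 6 were higher in members in all 8 mice and 1 was lower, and the median log2 ratio of the list was 0.15 beside -0.05 over all genes at that level. Without mesothelial-marker nuclei 4 were higher and 1 lower, and the median was 0.05 beside -0.04 over all genes. The count over all genes is given for all members only, so the counts without mesothelial-marker nuclei have no such share beside them. Gria3, another AMPA receptor subunit, had a ratio of 1.01, and 0.71 without mesothelial-marker nuclei. It was at 188 CPM in members and at 138 CPM in the Kcnip1 and Bmper set. Grip1, a scaffold that binds AMPA receptors, had 1.66 in all members and -0.49 without mesothelial-marker nuclei. Of 17 genes of the dystrophin complex 6 were higher and 3 lower in all mice (4 and 1 without those nuclei), led after Sntg1 by Sntg2, the other gamma-syntrophin, at 1.68. Of 11 genes for Nkain proteins and Na,K-ATPase subunits 3 were higher and 4 lower (2 and 1 without those nuclei), and Nkain4, a relative of Nkain3, went from 1.66 to 0.01. Of 7 genes for aldehyde oxidases and the molybdenum cofactor 4 were higher (3 without those nuclei), with Aox1 at 0.44 and Xdh, xanthine dehydrogenase, at 0.46. Of 16 genes with thrombospondin type 1 domains 7 were higher and 1 lower (5 and 1 without those nuclei). Of 18 genes for zinc transport and metallothioneins 2 were higher and 2 lower (1 and 1 without those nuclei). The genes named here from these lists were chosen after their values were seen.

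Secreted signals and matrix genes were likewise mixed. Of 38 genes for growth factors, chemokines and guidance cues 15 were higher and 5 lower in all 8 mice, and 11 and 3 without mesothelial-marker nuclei. As above, the counts without those nuclei have no share over all genes beside them. Slit3, a guidance cue, stood at 1622 CPM in members against 504 CPM, with a median log2 ratio of 1.71 and 1.63 without mesothelial-marker nuclei. Vegfd, a growth factor for lymphatic endothelium, had ratios of 1.55 and 1.67. Of 26 collagen genes 8 were higher and 9 lower, and 6 and 6 without those nuclei. Col4a6 was at 0.98 and Col14a1 at 0.92, although Col14a1 was at 304 CPM in the Gfpt2 and C7 set against 247 CPM in members, while Col15a1 was at -0.41 and Col8a1 at -0.47. Of 42 Wnt genes 12 were higher and 3 lower (8 and 2 without those nuclei), and the median log2 ratio was 0.10 and -0.01 without them. Tcf7l2, a transcription factor that works with beta-catenin, was at 0.23, while Ctnnb1, beta-catenin itself, was at -0.20, Prickle2 at -0.42 and the helix-loop-helix factor Tcf4, also on that list, at -0.36. Rspo3 had 1.36, Wnt5a 1.08 and Axin2, a feedback inhibitor induced by Wnt signals, 0.75, and without mesothelial-marker nuclei 1.51, 0.88 and 0.97. These genes were likewise chosen after their values were seen.

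Of the 10 genes lowest in members, Morrbid and Tll2 were also far lower than in both other named sets. Morrbid, a long noncoding RNA known from myeloid cells, stood at 148 CPM in members, 410 CPM in other fibroblast barcodes and 484 CPM in the Gfpt2 and C7 set. Its median log2 ratio was -1.43 to the other fibroblast barcodes, -1.61 to the Gfpt2 and C7 set and -1.56 to the Kcnip1 and Bmper set. Tll2, a protease of the tolloid family, is a gene of the rule. Rerg, Zswim5, Tbx3os1, Lin7a, Pde8b, Serpini1 and Mdga2 had ratios of -2.04 to -1.55 to the other fibroblast barcodes, but 6 of these 7 were above 0 against the Gfpt2 and C7 set. Pericyte markers moved with them: the 10 markers summed to 402 to 1170 CPM in members and 1272 to 2644 CPM in other fibroblast barcodes, and the part of pericyte RNA in these 7 ratios was not tested.

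Taz itself was lower in members of Taz-KO mice in CPM but did not pass the test. It stood at 36.4, 34.3, 34.6 and 29.8 CPM in WT mice 4686, 4909, 5355 and 5356. It stood at 9.57, 25.01, 15.9 and 24.2 CPM in Taz-KO mice 4685, 4910, 5300 and 5301. The genotypes did not overlap, and the log2 fold change was -0.84 ± 0.25 (SE) and -0.86 without mesothelial-marker nuclei, with an adjusted p of 0.304 and 0.376 by edgeR's quasi-likelihood test on sums per mouse. Taz (chrX:74281912-74290151, plus strand) overlaps the start of Dnase1l1 on the opposite strand with its own start, and 141 UMIs were behind the Taz-KO value. In whole libraries Taz was at 41.4 ± 0.524 CPM in WT and 26.7 ± 3.83 CPM in Taz-KO mice (SD, n = 4 each), in the same direction as the labels.

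Between the genotypes, 16 of 13218 genes tested in members passed an adjusted p of 0.05, which is 0.121% of the genes tested. Of these, 14 were higher in Taz-KO mice (0.106%) and 2 lower (0.0151%). Without mesothelial-marker nuclei 23 of 12848 genes passed (0.179%), among them 11 of the 16. The count leaned on single mice: 9 genes without WT 4909, 27 without WT 5356, 1 without Taz-KO 4910, 8 without Taz-KO 5300 and 45 without Taz-KO 5301, while DESeq2 called 106 of 13218 (0.802%). In the other fibroblast barcodes 233 of 19085 genes passed (1.22%).

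The only gene list with called members was that of the integrated stress response, the program in which translation is slowed and the factor ATF4 induces genes for amino acid supply. Asns, asparagine synthetase, rose 3.95 ± 0.36 on the log2 scale (adjusted p = 0.00208, edgeR). It was at 1.66, 1.68, 2.86 and 1.70 CPM in WT mice 4686, 4909, 5355 and 5356 and at 23.0, 37.5, 39.5 and 10.4 CPM in Taz-KO mice 4685, 4910, 5300 and 5301. Trib3, a pseudokinase that feeds back on ATF4, rose 2.47 ± 0.27 (adjusted p = 0.00548, edgeR). Its levels were 5.24, 5.39, 4.77 and 3.40 CPM in the WT mice and 26.8, 25.7, 36.5 and 13.9 CPM in the Taz-KO mice, in the same order. Phgdh, the first enzyme of serine synthesis, rose 2.36 ± 0.38 (adjusted p = 0.0481, edgeR), and Taz-KO 5301 at 3.46 CPM lay within the WT range of 2.13 to 6.36 CPM. For Asns and Trib3 every Taz-KO mouse was above every WT mouse, and Taz-KO 5301 was the lowest of its genotype for all 3. The members of Taz-KO 5301 held 288670 UMIs in all, so that its values of these 3 genes rest on few UMIs.

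The rest of the list lay mostly on the same side without passing. Of its 29 genes tested 3 passed, all of them higher, 26 had a log2 fold change above 0, and in 6 the genotypes did not overlap with Taz-KO mice higher, as in 3.19% of all genes tested. At an unadjusted p under 0.05 by edgeR 17 were higher and 1 lower, against 5.1% and 3.22% of all genes tested. The median was 0.66 beside 0.01 over all genes tested. The 4 others of highest mean CPM were Atf6, Atf4, Cebpg and Vldlr. Atf6, a sensor of the endoplasmic reticulum, was at 0.42 ± 0.15 (adjusted p = 0.422, edgeR), Atf4 at 0.72 ± 0.35 (0.634), Cebpg, a partner of ATF4, at 0.14 ± 0.17 (0.968) and Vldlr, a lipoprotein receptor, at -0.37 ± 0.39 (0.943). Without mesothelial-marker nuclei the median of the list was 0.73, and Asns, Trib3 and Phgdh passed with 4.07, 2.46 and 2.58. Mthfd2, an enzyme of mitochondrial one-carbon metabolism, then passed as well with a log2 fold change of 2.89 (adjusted p = 0.0361, edgeR). The list had a median of 0.66 in the other fibroblast barcodes too, where 11 of its genes passed. In Taz-KO mice Asns was lower in members (27.6 CPM) than in the whole library (38.7 CPM), and so was Trib3 (25.7 CPM against 57.6 CPM). The part of RNA from other cells in these values was not tested. When a share of 0.2 of each sum was subtracted, as given below, Trib3 and Phgdh did not pass in edgeR. Asns fell below the filter on low counts there. Of 19 cytosolic aminoacyl-tRNA synthetase genes, which charge tRNAs and hold further ATF4 targets, 0 passed in edgeR, 8 had an unadjusted p under 0.05, all higher, and the median was 0.28.

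Asns and Trib3 are shown with their promoters because they are the called genes of this list whose genotypes did not overlap. RefSeq promoters (GRCm38.p6, 250 bases before to 50 bases after the annotated start, all on the minus strand of the chromosome) were searched on both strands for TGATGNAA, the core of the element that ATF4 binds together with C/EBP proteins. Capitals mark the match, which lies 23 bases before the start in Asns (chr6:7693160-7693459) and, on the other strand, 14 bases after it in Trib3 (chr2:152344011-152344310).
Asns: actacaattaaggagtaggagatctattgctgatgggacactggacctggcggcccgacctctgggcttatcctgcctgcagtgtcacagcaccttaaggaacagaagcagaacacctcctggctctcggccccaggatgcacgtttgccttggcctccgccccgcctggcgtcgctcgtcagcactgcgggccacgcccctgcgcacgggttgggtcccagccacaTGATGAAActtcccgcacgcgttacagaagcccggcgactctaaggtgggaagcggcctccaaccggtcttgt
Trib3: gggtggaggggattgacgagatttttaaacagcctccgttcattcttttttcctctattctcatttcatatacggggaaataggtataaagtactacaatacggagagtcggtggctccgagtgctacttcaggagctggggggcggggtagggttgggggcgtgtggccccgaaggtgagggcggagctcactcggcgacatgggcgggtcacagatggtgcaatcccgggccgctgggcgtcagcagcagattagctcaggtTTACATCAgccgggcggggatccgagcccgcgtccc
These letters occur in 1304 of 32851 promoters of the same length (3.97%), and the promoter of Phgdh holds 0 matches. A match is a run of letters, not a measured binding site.

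A second group of called genes was higher in members than in the whole library and highest in the nuclei with mesothelial markers. Zdbf2, an imprinted gene, rose 2.13 ± 0.30 on the log2 scale (adjusted p = 0.0226, edgeR), from 5.72 to 12.3 CPM in WT mice to 36.4 to 76.2 CPM in Taz-KO mice. Synpr, a synaptic vesicle protein, rose 3.03 ± 0.43 (adjusted p = 0.0226), Plxna4os3, antisense to the semaphorin receptor gene Plxna4, 1.84 ± 0.24 (0.00950), Gsdme, a gasdermin that forms membrane pores, 1.41 ± 0.21 (0.0313) and Folh1, a glutamate carboxypeptidase, 2.07 ± 0.33 (0.0477), all by edgeR. The genotypes did not overlap for any of these 5 genes. In Taz-KO mice Zdbf2 was at 161 CPM in members with mesothelial markers and at 9.64 CPM in the remaining members. For Synpr these values were 54.5 and 2.01 CPM, for Gsdme 204 and 87.8 CPM, for Plxna4os3 75.8 and 15.4 CPM and for Folh1 17.04 and 5.24 CPM.

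Without the mesothelial-marker nuclei none of these 5 genes was called in edgeR, and Gsdme and Plxna4os3 were called in DESeq2 (adjusted p = 0.0166 and 0.00704). Gsdme then had a log2 fold change of 1.21 (adjusted p = 0.126, edgeR), Plxna4os3 1.73 (0.0989) and Folh1 1.98 (0.102), in the same direction, while Zdbf2 and Synpr were under the count filter and were not tested. The share of these nuclei is itself larger in Taz-KO mice, and its part in the 5 results was not tested. Within the mesothelial-marker nuclei alone the means of Zdbf2 were 75.1 CPM in WT and 161 CPM in Taz-KO mice, from as few as 7 nuclei a mouse. For the 8 mesothelial markers the median log2 fold change was 1.22 over all members, with 0 of 8 passing in edgeR. At an unadjusted p under 0.05 by edgeR 6 of 8 were higher and 0 lower, beside 5.1% and 3.22% of all genes tested. In the other fibroblast barcodes the median of these markers was 1.57, and 1 passed in edgeR.

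A further group of called genes was lower in members than in the library from which they came, as Asns and Trib3 also were in Taz-KO mice. Tenm4, a teneurin of the cell surface, rose 4.20 ± 0.42 (adjusted p = 0.00582, edgeR), from 6.90 to 10.8 CPM in WT mice to 329, 149.6, 109 and 79.7 CPM in Taz-KO mice 4685, 4910, 5300 and 5301, while whole libraries of the Taz-KO mice held 565 to 977 CPM. Gm15414 (chr7:96596652-96629069, minus strand), which lies inside Tenm4 (chr7:96171246-96911093, plus strand), rose 4.70 ± 0.55 (adjusted p = 0.00582, edgeR) to 9.33 CPM in members and 32.5 CPM in whole Taz-KO libraries, and whether the counting separates the 2 strands is not given in the sources used here. Vmn2r3, a vomeronasal receptor gene, had 0 UMIs in members of the WT mice and 276 in those of the Taz-KO mice (adjusted p = 0.00813, edgeR). With 3 counts over the WT group as its floor it was at least 210-fold higher in the UMIs summed over the Taz-KO mice (41.9 CPM). The mean of these mice was 32.6 ± 19.9 CPM (SD, n = 4), against 140 CPM in the whole libraries. Tex22, Mei4 and Gm15283, which is antisense to Hif1a, rose 3.99 ± 0.62, 2.81 ± 0.43 and 1.22 ± 0.20 (adjusted p = 0.0481, 0.0374 and 0.0481, edgeR), and the genotypes did not overlap for any of them. Their means in Taz-KO mice were 20.6, 6.83 and 47.1 CPM in members and 87.9, 25.9 and 99.8 CPM in whole libraries.

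Both genes that fell are long noncoding RNAs with the same feature. Gm26862 (chr7:93006982-93104789, plus strand, which holds the gene Fam181b) had a log2 fold change of -3.42 ± 0.34 (edgeR, adjusted p = 0.00336). It was at 19.03, 24.4, 21.9 and 31.1 CPM in WT mice 4686, 4909, 5355 and 5356 and at 1.91, 2.21, 2.95 and 0.00 CPM in Taz-KO mice 4685, 4910, 5300 and 5301. Gm24474 (chr12:70650182-70693780, plus strand) had -2.97 ± 0.37 (edgeR, adjusted p = 0.00894), from 21.6 to 37.7 CPM to 0.00 to 5.89 CPM. Whole WT libraries held 108 and 142 CPM of them against 24.1 and 31.9 CPM in members. These 8 genes were called in the same direction as their library means differ, and the 17 cardiomyocyte markers, all with UMIs in members, summed to 0.123 to 0.646 times their library level. The part of RNA from other cells in these 8 results was not tested. In an alternative, a share of 0.2 of each sum was taken away in proportion to the RNA of the barcodes with the fewest UMIs. These were a share of 0.1 of each library's barcodes. The lowest barcode of a library had 500 to 6522 UMIs, so these need not be empty droplets. After this subtraction 0 of 12586 genes passed in edgeR and 772 had an unadjusted p under 0.05. Of the 16 called genes 11 could then be tested, all in the same direction as before, with log2 fold changes that differed by at most 0.38 and a lowest adjusted p of 0.152 by edgeR. Asns, Gm15414, Vmn2r3, Mei4 and Tex22 fell below the filter on low counts there. Tenm4 was then at 3.98, Trib3 at 2.25 and Gm26862 at -3.11. Tenm4, Gm15414, Vmn2r3, Tex22, Mei4, Gm15283, Gm26862 and Gm24474 all passed in edgeR without mesothelial-marker nuclei.

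**Figure D4:**
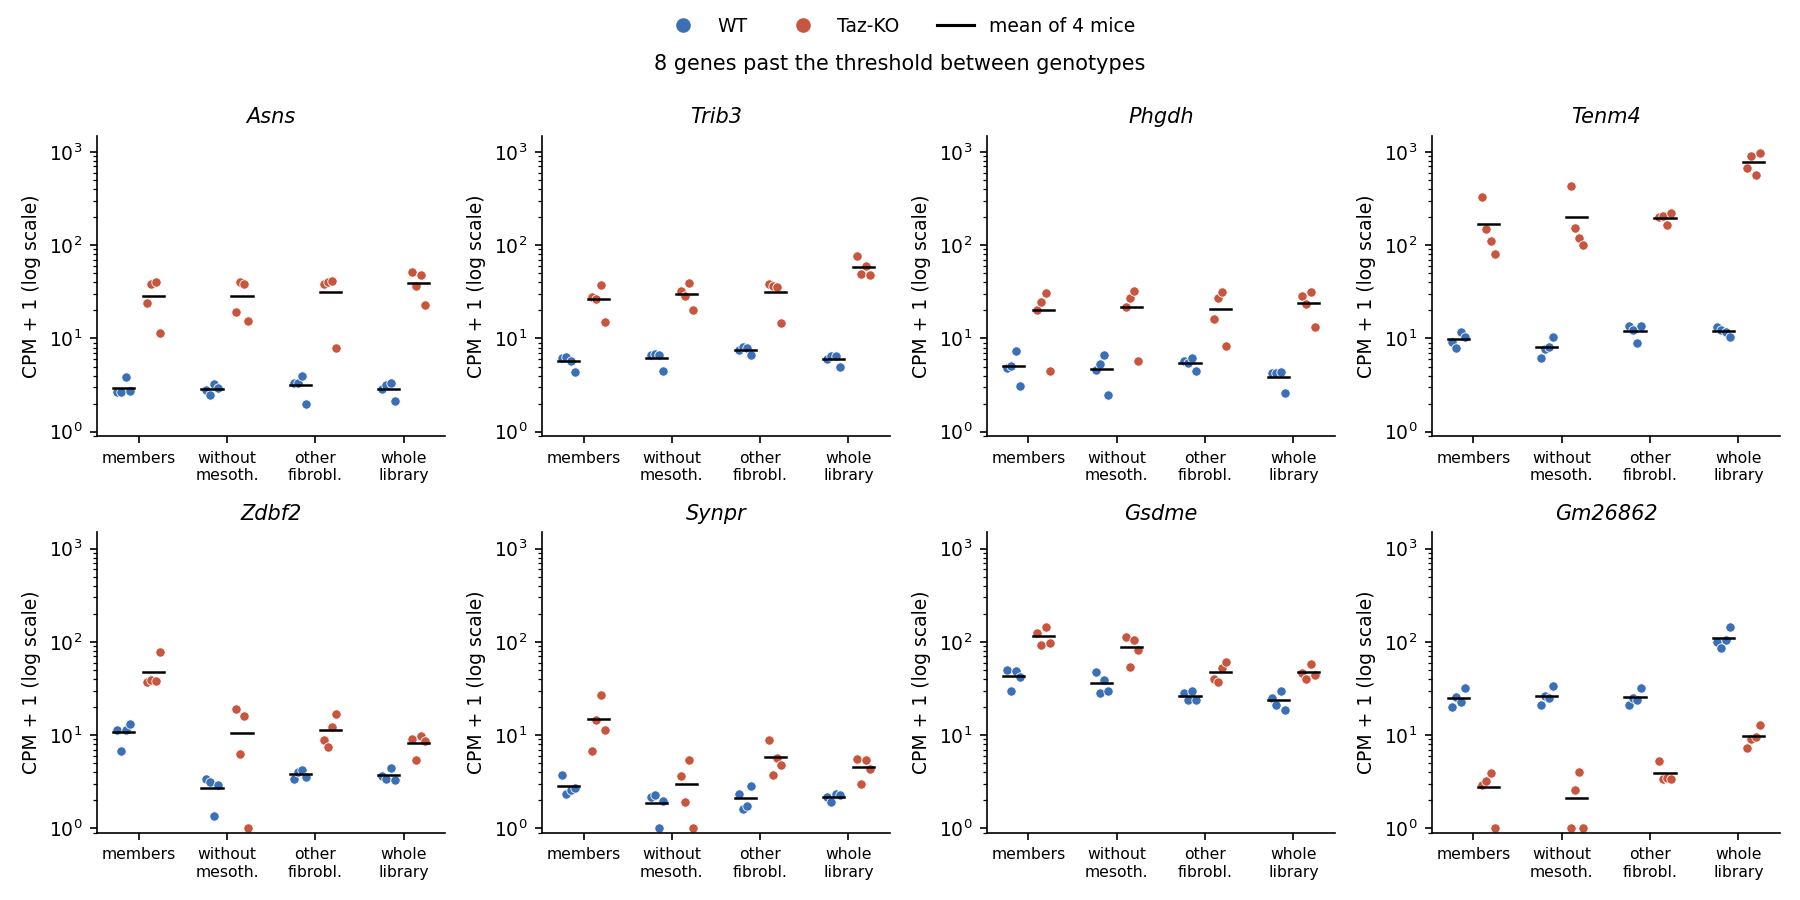
CPM + 1 (log axis) of 8 genes past the threshold between genotypes, in all members, in members without mesothelial markers, in other fibroblast barcodes and in the whole library. Points are mice, blue for WT and red for Taz-KO, and lines are means of 4 mice. Zdbf2 and Synpr drop in the second column, and Tenm4 and Gm26862 are highest in the whole library. The mean of Asns in Taz-KO mice is lower in members than in the whole library.

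The next 8 genes lower in Taz-KO mice by p were Efhd1, Gm20757, Gfra1, Crhr2, Gm35041, Morrbid, Palld and Pcdh19, none of which passed in edgeR. All 8 passed in DESeq2, with adjusted p from 0.000502 to 0.0122. In the simulated sums described below DESeq2 gave more false calls than edgeR. Gfra1, a co-receptor for glial cell line-derived neurotrophic factor, was at 103.7, 76.4, 84.8 and 126.7 CPM in WT mice and at 53.6, 36.1, 34.2 and 52.0 CPM in Taz-KO mice, a log2 fold change of -1.29 ± 0.22 (adjusted p = 0.0623, edgeR). Morrbid was at 181 to 188 CPM in WT and 99.0 to 142 CPM in Taz-KO mice, with -0.79 ± 0.15 (adjusted p = 0.0887, edgeR). Efhd1, a calcium-binding mitochondrial protein, was at -1.39 ± 0.24 (adjusted p = 0.0623), and it passed without mesothelial-marker nuclei with -1.51 (adjusted p = 0.0382, edgeR). In all 8 genes the genotypes did not overlap, as in 257 genes on the lower side (1.94% of those tested), which is a description because the genes were chosen by their p in this comparison.

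The genes that define the set chose the nuclei, so their differences between genotypes are a description with no test. The log2 fold change in members was 0.60 for Sntg1, -0.74 for Aox3, 0.33 for Gpr39, 0.23 for Nkain3, 0.09 for Thsd7b and -0.06 for Gria4. In the UMIs that did not choose the nuclei Sntg1 was at 704, 600.1, 626 and 716 CPM in WT mice 4686, 4909, 5355 and 5356 and at 1053, 953, 666 and 1484 CPM in Taz-KO mice 4685, 4910, 5300 and 5301. The genotypes overlapped there, with Taz-KO 5300 below WT 4686 and 5356.

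Matrix and activation genes gave 0 calls in edgeR. The 27 collagen genes had a median log2 fold change of -0.06, with 1 gene at an unadjusted p under 0.05. Of all genes tested, 5.1% were higher and 3.22% lower in Taz-KO mice at such a p. Col3a1, the most abundant, was at 1134 ± 222 CPM in WT and 1301 CPM in Taz-KO mice, a log2 fold change of 0.15 ± 0.24. The 18 genes of activated fibroblasts had a median of 0.27 and 3 genes at an unadjusted p under 0.05, and 27 genes of the TGF-beta pathway had 0.09 and 2 genes. The 27 fatty acid oxidation genes had a median of -0.33 with 5 such genes, and the 41 respiratory chain genes a median of -0.28 with 0. The 17 cardiomyocyte markers had a median of -0.45 in the same members, with 1 above 0. The part of cardiomyocyte RNA in these medians was not tested. Of 38 genes for secreted signals 11 were lower and 2 higher at that unadjusted p, with a median of -0.08. The 19 genes of cardiolipin synthesis and remodeling, Taz included, had a median of 0.05 and 3 such genes. The median over all genes tested was 0.01.

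**Figure D5:**
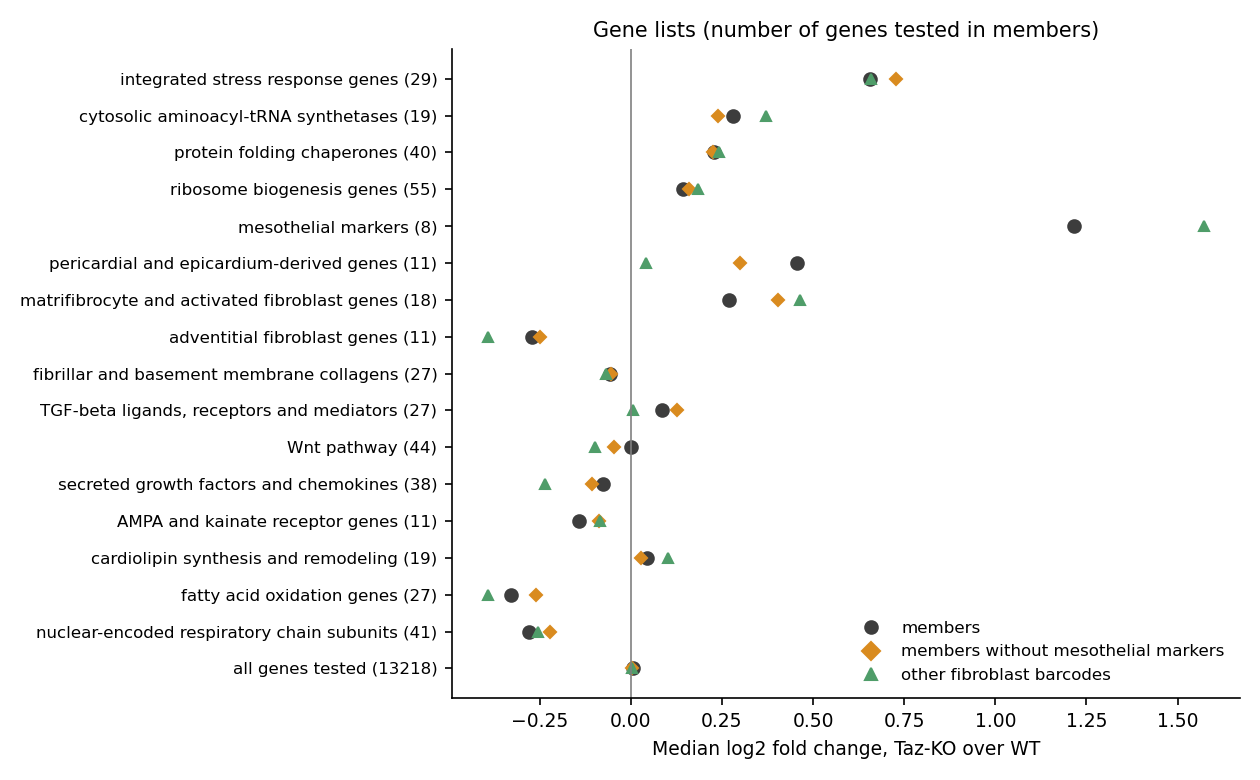
Median log2 fold change of Taz-KO over WT for 16 gene lists and for all genes tested, in members (dark circles), in members without mesothelial markers (orange diamonds) and in other fibroblast barcodes (green triangles). The mesothelial list has no orange diamond, since its genes chose the nuclei left out. The number in brackets is the genes tested in members. The integrated stress response and mesothelial lists lie farthest to the right at 0.66 and 1.22 in members, and fatty acid oxidation at -0.33 is the lowest of these 16.

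Whether Taz-KO and WT mice differed by another amount in members than in the other fibroblast barcodes was tested in 1 fit over both sums of each mouse. Of 14809 genes 0 passed in edgeR (0.0%), and 617 had an unadjusted p under 0.05. The 3 genes with the lowest p were Il33, an alarmin cytokine, Cmah, a sialic acid hydroxylase, and Adgrd1, an adhesion receptor whose level in members the rule limits. The difference of Il33 was 0.74 ± 0.14 on the log2 scale (adjusted p = 0.216, edgeR), with log2 fold changes of 1.02 in members and 0.30 in other fibroblast barcodes. Without mesothelial-marker nuclei it was 0.32. Cmah had a difference of 0.66 ± 0.13 (adjusted p = 0.216, edgeR). That of Adgrd1, 0.78, is a description only. Without Taz-KO 4685, 6 genes passed. A gene that passed in 1 population and not in the other is therefore not shown to differ between them.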

How the data were processed

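Single-nucleus RNA was measured in 8 hearts. Per the labels and the study's methods, the authors made 3′ libraries (10x Genomics v3.1) and counted reads, introns included, with Cell Ranger 6.0.1 on mm10, and the deposited matrices hold raw UMI counts per gene and barcode. The study's later steps, removal of ambient RNA and of doublets, had not been applied to the matrices. No doublet caller was run here, and members with markers of other cell types (538 of 3117) were left out in an alternative instead. Such markers were in 8.72% to 28.8% of a mouse's other fibroblast barcodes and in 9.77% to 33.3% of its members. Pericyte markers were in 5.08% to 22.2% of the other fibroblast barcodes and in 0.611% to 3.70% of members.

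The 13 mitochondrial genes were left out. Sums of member counts per mouse went into edgeR (version 4.0.16, R version 4.3.3, with TMM, filterByExpr, robust quasi-likelihood, Benjamini-Hochberg and a threshold of 0.05), since nuclei of 1 mouse are not replicates. The study's methods tested single nuclei and adjusted for variation between individual mice. DESeq2 1.42.0 served as the alternative. The interaction with population had the mouse as a block. Shares were compared by exact permutation over 70 groupings. In simulated sums with 200 of 13218 genes changed, edgeR recovered 25.5% of 2-fold and 88% of 4-fold changes, with 3 and 9 false calls. DESeq2 recovered 38% and 91%, with 16 and 18 false calls. Libraries differed in depth, from 20025456 to 348080773 UMIs, and p-values cover the spread between mice.

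The members, gene lists and tests were chosen with earlier results of these data known. Genes named include Taz, the rule's genes and the 15 largest called changes in each direction without overlap (filled up to 10 by lowest p, with overlap or not). They also include called members of each list with up to 4 of highest CPM, and the 20 largest and 10 smallest ratios to other fibroblast barcodes. The 3 lowest p of the interaction are named too. Further genes of the lists, and Mthfd2 from the fit without mesothelial-marker nuclei, were chosen after their values were seen. 1 gene of the 10 smallest ratios is not reported here. Sequences are RefSeq's (GRCm38.p6), and positions are from GENCODE vM21.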

Additional observations from a re-analysis of the deposited data

Results flagged for a closer look

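In 37 groups of 4 mice examined, 4 values stood far from the other 3 of their group by Dixon's criterion, and chance gives about 1 in 20. WT 4909 had a share of members among fibroblast barcodes of 6.91%, against 5.62% to 5.68% in the other WT mice. WT 5355 had 2.86 CPM of Asns in members, against 1.66 to 1.70 CPM in the other WT mice. With 3147052 UMIs in the members of WT 5355, its Asns value rests on few UMIs. Taz-KO 5301, the library with the fewest UMIs, had 76.2 CPM of Zdbf2 against 36.4 to 38.3 CPM, and 10.4 CPM of Mei4 against 5.30 to 5.89 CPM in the other Taz-KO mice. The members of Taz-KO 5301 held 288670 UMIs in all, so that its Mei4 value rests on few UMIs.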

How the results depend on the processing

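The 16 genes called between genotypes became 106 with DESeq2, 106 with no filter on low counts, 42 without both smallest Taz-KO libraries, 36 without members with other cell type markers, 8 under stricter membership (enrichment 10, 6 UMIs), 68 with DESeq2 without mesothelial-marker nuclei, 0 at the study's thresholds and 0 after ambient subtraction; leaving out 1 mouse gave 1 to 45. The edgeR count without mesothelial-marker nuclei was chosen after seeing the data. The difference in the share of members turned to 0.117 percentage points when thinned and to 0.881 with common reference shares, and leaving out 1 mouse gave -1.28 to -0.586. The interaction count was 1 without members with other cell type markers and 0 to 6 leaving out 1 mouse; the cause was not tested. Among alternative fits of the named genes 328 left the call as it was, 91 lost it, 34 gained it and 0 turned direction. No paired analysis was possible because the labels tie no WT mouse to a Taz-KO mouse. Mouse numbers fall into 3 runs that each hold both genotypes, which the labels do not call a batch. With the run as a term, chosen after seeing the data, edgeR called 10 genes, 9 of them among the 16. The 27 and 66 members of Taz-KO 4685 and 5301 limit the depth.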
